A study of Mus musculus with 4 samples.

Results

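The stathmin and tubulin genes described here are 10 of the 25170 genes in a ribosome profiling table: the stathmins Stmn1, Stmn2 and Stmn3, the alpha-tubulins Tuba1a, Tuba1b and Tuba3a, and the beta-tubulins Tubb5, Tubb4b, Tubb2a and Tubb2b, taken by their symbols. They were chosen with the values of this table known, Stmn2 and Tuba3a having stood out between the groups, so their differences are given as a description, with no test. The cells were the wild-type mouse embryonic stem cell line E14, derived from the inner cell mass and grown on gelatin with serum and leukemia inhibitory factor. Each group had 2 libraries: wild-type cells held for 3 passages with the solvent DMSO, or with PD at 1 µM, a compound that carries no fuller name in the labels. The study asks what the kinase Mek does after transcription. Ribosome profiling sequences the RNA that ribosomes shield from nuclease, so a gene's level follows its mRNA as well as the density of ribosomes on it, and matched mRNA libraries were not analysed here. All 4 libraries come from 1 line, and nothing says that replicates were separate cultures, so p-values reflect a spread that may be technical.

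Microtubules are hollow filaments built from dimers of an alpha-tubulin and a beta-tubulin, and they serve as tracks for cargo and form the spindle in dividing cells. Mammals have several genes for each partner, and the proteins differ mainly in their acidic tails. Stathmins bind free tubulin dimers and keep them from joining the filament, and phosphorylation of stathmin, by ERK among other kinases, loosens that hold. Stmn1 is found in most dividing cells, whereas Stmn2 and Stmn3 are known from neurons. Cells also adjust tubulin synthesis on the ribosome: when free tubulin is plentiful, the factor Ttc5 recognises the first residues of newly made tubulin and starts decay of its mRNA.

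Values are FPKM, fragments scaled to transcript length and to library size, so levels of different genes can be set side by side per length. The table states no depth, but the size of the step that 1 read adds to a value could be found for each library. With DMSO replicate 1 set to 1, the depth of DMSO replicate 2 was 1.42, that of PD replicate 1 was 0.464 and that of PD replicate 2 was 0.201. The PD libraries were thus the shallower ones, and depth moved with treatment; its part in the differences below was not tested. Reads could be recovered as whole numbers for 7 genes of the 10, and not for Stmn2, Tubb5 and Tubb2b, for which up to 150 reads in the library with fewest were searched. Recovered reads are the smallest set of whole numbers that fits, so the true numbers may be larger by a whole factor. A gene whose values share no such step can also fit by chance, and its recovered reads may then be far too many. The 95% exact Poisson intervals built on them hold counting error alone, because reads without molecular identifiers are not independent molecules. The cell type label was checked against 14 embryonic stem cell markers, all of which had a mean of at least 1 FPKM, and whose levels summed to 2491 and 2410 FPKM for DMSO and to 2439 and 4103 FPKM for PD. Most of this was Dppa5a, and without it the sums were 1077 and 777 FPKM against 1019 and 900 FPKM. Of these markers 4 had both PD values above both DMSO values and 2 had both below, where 17.5% and 18.3% of all tested genes did; Dppa2, among the 4, reached the mean of 1 FPKM only through its PD values. The test over all genes passed 0 of them, as it passed 0 of all 8861 tested protein-coding genes. Nanog averaged 63.6 FPKM for DMSO and 126 FPKM for PD (limma adjusted p = 0.803), and it was the marker with an unadjusted p under 0.05. On the log2(FPKM + 1) scale its difference of 0.98 was the largest of the 14, whose median was 0.18. The 2 markers with both PD values below had differences of -0.35 and -0.34.

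The 5′ flanks of 4 of these genes are shown first, because Tuba3a and Tuba1a were the alpha-tubulin members with each PD value above each DMSO value, Tuba1b is the gene next to Tuba1a on chromosome 15 and did not share that pattern, and Tubb5 had the highest level of all. Each run is the 250 bases before the annotated start (RefSeq, GRCm38.p6, the assembly that mm10 shows), on the minus strand, at chr6:125286082-125286331 for Tuba3a, chr15:98953502-98953751 for Tuba1a, chr15:98934391-98934640 for Tuba1b and chr17:35838302-35838551 for Tubb5. Capitals mark the motifs searched on both strands: CCAAT (the CCAAT box), GGGCGG (the GC box), TATAAA (the TATA box), TGACGTCA (the cyclic AMP response element) and CACGTG (an E-box).
Tuba3a: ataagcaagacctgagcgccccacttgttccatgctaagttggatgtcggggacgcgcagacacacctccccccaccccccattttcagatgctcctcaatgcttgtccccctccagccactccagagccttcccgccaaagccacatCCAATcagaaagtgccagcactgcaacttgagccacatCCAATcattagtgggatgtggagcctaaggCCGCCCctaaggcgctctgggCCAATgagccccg
Tuba1a: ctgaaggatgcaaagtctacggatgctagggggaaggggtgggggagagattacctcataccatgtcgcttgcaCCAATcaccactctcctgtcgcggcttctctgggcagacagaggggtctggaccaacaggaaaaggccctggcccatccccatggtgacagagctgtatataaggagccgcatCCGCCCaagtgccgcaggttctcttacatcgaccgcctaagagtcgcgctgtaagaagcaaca
Tuba1b: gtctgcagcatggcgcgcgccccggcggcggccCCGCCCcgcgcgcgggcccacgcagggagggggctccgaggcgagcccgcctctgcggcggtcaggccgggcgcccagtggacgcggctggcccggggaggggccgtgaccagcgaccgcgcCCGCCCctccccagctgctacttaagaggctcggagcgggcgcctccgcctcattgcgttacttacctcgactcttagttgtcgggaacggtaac
Tubb5: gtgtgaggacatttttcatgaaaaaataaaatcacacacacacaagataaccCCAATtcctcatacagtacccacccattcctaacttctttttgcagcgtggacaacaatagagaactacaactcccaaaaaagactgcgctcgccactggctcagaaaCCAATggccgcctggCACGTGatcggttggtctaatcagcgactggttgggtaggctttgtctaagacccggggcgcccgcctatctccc

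In these windows Tuba3a held 3 CCAAT boxes, at 102, 64 and 13 bases before the start, and 1 GC box. Tuba1a held 1 CCAAT box and 1 GC box, and Tuba1b held 2 GC boxes and no CCAAT box. Tubb5 held 2 CCAAT boxes and 1 E-box, a sequence found in 6.02% of all windows. The table had entries for 7 of the 10 genes, and 4 of these 7, namely Tuba1a, Tuba3a, Tubb5 and Tubb4b, held a CCAAT box, against 33.8% of all 32851 promoter windows of the same length. Tubb4b held 5 CCAAT boxes. A GC box was present in 5 of the 7, against 32.7% of all windows. Tubb2a was the member with a cyclic AMP response element, a sequence found in 1.55% of windows. It was also the member with the exact letters TATAAA, found in 12.4%. Other forms of the TATA box were not searched. The CArG box, which the serum response factor binds, was in none of the 7 windows and in 1.47% of all. CpG sites numbered 8 for Tuba3a, 11 for Tuba1a, 10 for Tubb5 and 35 for Tuba1b, with a median of 6 over all windows. A match to these letters is a description of the sequence and not of a bound site.

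Stmn2 (mm10, chromosome 3, 8509527 to 8561604) was the most abundant stathmin, and its level was higher in PD. It encodes a stathmin anchored to membranes, known for growing and regenerating axons. DMSO gave 132 and 121 FPKM, and PD gave 264 and 283 FPKM. Both PD libraries lay above both DMSO libraries, with little spread inside either group: 127 ± 7.61 FPKM for DMSO and 273 ± 13.5 FPKM for PD (SD, n = 2), a ratio of the means of 2.16. On the log2(FPKM + 1) scale, which understates changes of low genes, the difference was 1.10. By mean level Stmn2 ranked 188 among 8861 tested protein-coding genes, and 173 of these genes had a larger difference. Among the 357 genes within 2-fold of its mean level, 7 had a difference at least as large. Stmn2 was chosen because it stood out between the groups, so these ranks restate that choice and are no evidence. The authors' deposited confidence bounds were wide, at 74.3 to 190 and 68.9 to 174 FPKM for DMSO and 143 to 384 and 153 to 413 FPKM for PD, and they overlapped between groups.

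Stmn1, the stathmin of dividing cells (chromosome 4, 134468320 to 134473843), was far lower. DMSO gave 9.56 and 4.26 FPKM, and PD gave 3.80 and 8.75 FPKM. The groups overlapped, with means of 6.91 ± 3.75 and 6.27 ± 3.50 FPKM (SD, n = 2). Behind these values were 38 and 24 recovered reads for DMSO, and 7 for each PD library. Its small difference of -0.12 changed sign without DMSO replicate 1 (0.38) and without PD replicate 1 (0.39).

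Stmn3, another neuronal stathmin (chromosome 2, 181306459 to 181314500), gave 7.86 and 2.61 FPKM with DMSO and 2.99 and 2.30 FPKM with PD. DMSO replicate 1 was the high library, and DMSO replicate 2 lay between the PD libraries. The difference of -0.64 therefore rested on that library, and without it the value was 0.01. Its recovered reads were 17 and 8 for DMSO and 3 and 1 for PD. Stmn4 was listed at 0.195 FPKM in DMSO replicate 1 and at 0 elsewhere. Stmn2 thus made up 88.2% and 94.6% of summed stathmin FPKM with DMSO, and 97.5% and 96.2% with PD.

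**Figure D1:**
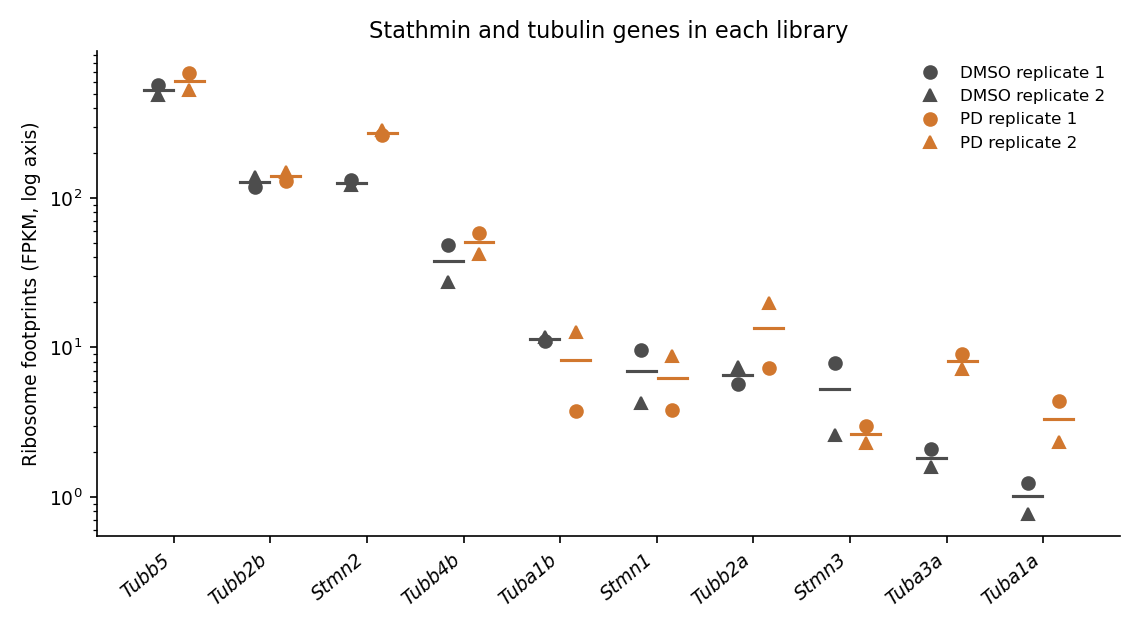
Ribosome footprints of the 10 genes, 1 column per gene, in FPKM on a log axis; circles and triangles are replicates 1 and 2, grey is DMSO, orange is PD, and short lines are group means of 2 libraries. Stmn2, Tuba3a and Tuba1a have both orange points above both grey points, while Stmn1, Tuba1b and the beta-tubulins overlap.

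Of the 10 genes, 3 (Stmn2, Tuba3a and Tuba1a) had every PD value above every DMSO value and 0 had every value below; over all 9741 tested genes these shares were 17.5% and 18.3%. The genes were selected on this contrast, and nothing is read from the comparison of these shares. All 10 passed the filter of a mean of at least 1 FPKM. The deposited bounds overlapped between groups for all 10. The median log2 difference of the 10 was 0.31, against -0.02 over all tested genes.

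Tuba3a, an alpha-tubulin known from testis (chromosome 6, 125278270 to 125286081), showed the widest gap between groups. DMSO gave 2.08 and 1.58 FPKM, PD 8.97 and 7.15 FPKM. Every PD value exceeded 3 times every DMSO value, with means of 1.83 ± 0.352 and 8.06 ± 1.29 FPKM (SD, n = 2) and a log2 difference of 1.68. Recovered reads were 13 and 14 for DMSO, 26 and 9 for PD. Put together, 27 reads came from a relative depth of 2.42 in DMSO and 35 reads from 0.665 in PD. The counting interval of PD replicate 1, 5.86 to 13.1 FPKM, lay above those of DMSO, at 1.11 to 3.56 and 0.864 to 2.65 FPKM, while that of PD replicate 2, 3.27 to 13.6 FPKM, overlapped that of DMSO replicate 1. Among 8861 tested protein-coding genes 32 had a larger log2 difference. Tuba3a was also chosen for its difference, so that rank restates the choice and is no evidence.

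Tuba3b, the closest listed relative of Tuba3a by name and also on chromosome 6, did not share that pattern. It was listed at 0.791 and 0.335 FPKM in DMSO and at 1.02 and 0 FPKM in PD, on 5, 3, 3 and 0 recovered reads, and it was too low to be tested.

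Tuba1a, the alpha-tubulin of developing neurons (chromosome 15, 98949847 to 98953501), was the lowest member in DMSO. DMSO gave 1.24 and 0.768 FPKM, PD 4.36 and 2.32 FPKM. Each PD value was above each DMSO value, but they came from 8, 7, 13 and 3 recovered reads, and the counting interval of PD replicate 2, 0.478 to 6.77 FPKM, overlapped those of DMSO, 0.537 to 2.45 and 0.309 to 1.58 FPKM. Means were 1.01 ± 0.336 and 3.34 ± 1.44 FPKM (SD, n = 2), with a log2 difference of 1.08.

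Tuba1b, the widely used alpha-tubulin that lies beside it (chromosome 15, 98931431 to 98934390), was well above Tuba1a in DMSO and had another pattern. DMSO gave 11.0 and 11.7 FPKM, close together, and PD gave 3.77 and 12.6 FPKM, far apart. The Poisson intervals of the PD libraries lay apart, at 1.88 to 6.74 and 7.21 to 20.5 FPKM on 11 and 16 recovered reads. Their deposited bounds, 0.183 to 7.35 and 4.80 to 20.4 FPKM, overlapped. PD replicate 1 was the low library, and the log2 difference of -0.61 became 0.15 without it.

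Of the 5 alpha-tubulins that were not members, Tuba1c, Tuba4a and Tuba8 were high enough to be tested over all genes with limma on log2(FPKM + 1), and 0 passed at an adjusted p of 0.05. That was so for all 8861 tested protein-coding genes, of which 0 passed. Tuba4a was the leading alpha gene, at 105 and 86.0 FPKM in DMSO and 101 and 79.8 FPKM in PD, a log2 difference of -0.08 (limma adjusted p = 0.969). Tuba1c had 12.2 and 7.99 FPKM with DMSO and 4.72 and 6.65 FPKM with PD, each PD value below each DMSO value (log2 difference -0.72, SE 0.34, limma adjusted p = 0.837). Tuba8 had 0.341 and 0.361 FPKM with DMSO and 2.20 and 1.69 FPKM with PD (log2 difference 1.12, limma adjusted p = 0.825), on 2, 3, 6 and 2 recovered reads. It reached the filter only through its PD values, so that it had to differ once it was tested. The sum over all 8 listed alpha genes was 121 ± 16.6 FPKM for DMSO and 118 ± 11.1 FPKM for PD (SD, n = 2).

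As shares of the summed alpha FPKM, Tuba4a took 79.0% and 78.8% with DMSO and 79.8% and 72.2% with PD. Tuba3a took 1.57% and 1.45% with DMSO and 7.10% and 6.46% with PD, and Tuba1a took 0.939% and 0.704% against 3.45% and 2.09%. Tuba1b held 8.27% and 10.7% in DMSO and 2.98% and 11.4% in PD. The 3 alpha members alone summed to 14.1 ± 0.192 FPKM for DMSO and to 19.6 ± 3.53 FPKM for PD (SD, n = 2), a log2 difference of 0.43 that became -0.02 when all 8 genes were summed.

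**Figure D2:**
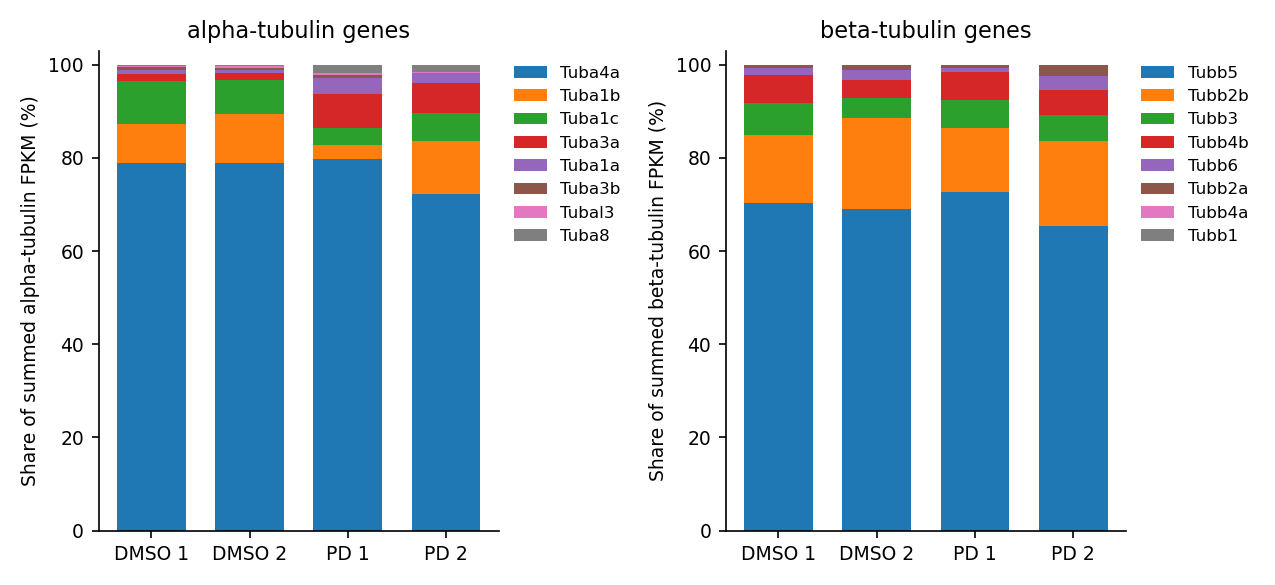
Share of the summed FPKM taken by each of 8 alpha-tubulin genes (left) and 8 beta-tubulin genes (right) in each library, as stacked bars in percent. Tuba4a leads the alpha genes at 72.2% to 79.8% and Tubb5 the beta genes at 65.4% to 72.6%, while the bands of Tuba3a and Tuba1a are wider in the PD libraries.

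Tubb5, the main beta-tubulin of dividing cells (chromosome 17, 35833920 to 35838301), was the highest of the 10 genes. DMSO gave 572 and 488 FPKM, PD 688 and 531 FPKM. PD replicate 2 lay inside the DMSO range, and the means, 530 ± 59.0 and 610 ± 111 FPKM (SD, n = 2), differed by less than the spread of the PD libraries. The log2 difference was 0.19, and quantile normalization turned it to -0.11. Tubb5 ranked 45 by mean level among 8861 protein-coding genes.

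Tubb2b, a beta-tubulin known from developing brain (chromosome 13, 34127008 to 34130354), had 118 and 137 FPKM in DMSO and 130 and 148 FPKM in PD. The libraries interleaved, with a log2 difference of 0.12. Its neighbour Tubb2a (chromosome 13, 34074280 to 34078008) was far lower, at 5.69 and 7.39 FPKM in DMSO, and had 7.30 and 19.9 FPKM in PD. PD replicate 1 lay between the DMSO libraries, so the mean of 13.6 ± 8.89 FPKM in PD came from replicate 2, where 26 recovered reads gave a counting interval of 13.0 to 29.1 FPKM. That interval lay above those of the other libraries, and the log2 difference of 0.81 became 0.15 without PD replicate 2. Tubb2a-ps2, a transcribed pseudogene, was listed at 7.31 FPKM in DMSO replicate 1 and at 1.85 to 2.13 FPKM in the other libraries.

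Tubb4b, a beta-tubulin present in many cells and in cilia (listed on chromosome 2, 25218745 to 25224702), had 48.5 and 27.5 FPKM in DMSO and 58.6 and 42.2 FPKM in PD. The RefSeq gene, on the minus strand, covers only 25222158 to 25224702, so the listed locus reaches past its end and may span a neighbour. The Poisson intervals of its DMSO libraries lay apart, at 43.3 to 54.2 FPKM on 314 recovered reads and 24.2 to 31.1 FPKM on 252. Their deposited bounds, 25.8 to 71.2 and 13.1 to 41.8 FPKM, overlapped. PD replicate 2 lay between the DMSO libraries, so the groups overlapped. Tubb3, the neuronal beta-tubulin and no member, showed the same split between the DMSO libraries, with 56.5 and 30.0 FPKM in DMSO and 56.7 and 45.3 FPKM in PD (limma adjusted p = 0.908). Tubb6 had 11.5 and 15.9 FPKM in DMSO and 6.34 and 24.3 FPKM in PD (limma adjusted p = 0.989).

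Summed beta-tubulin footprints were higher than summed alpha-tubulin footprints in each library. The 8 listed beta genes summed to 813 and 707 FPKM for DMSO and to 947 and 812 FPKM for PD, which left PD replicate 2 just below DMSO replicate 1. The beta sum was 6.13 and 6.48 times the alpha sum in DMSO and 7.50 and 7.34 times in PD. Tubulin genes of 1 family have near-identical coding sequences. No source used here says how reads that match several of them were assigned, so levels of single tubulin genes are uncertain. If such reads were dropped, the sums, the ratio of beta to alpha and the lead of Tuba4a would be affected too. That was not tested.

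**Figure D3:**
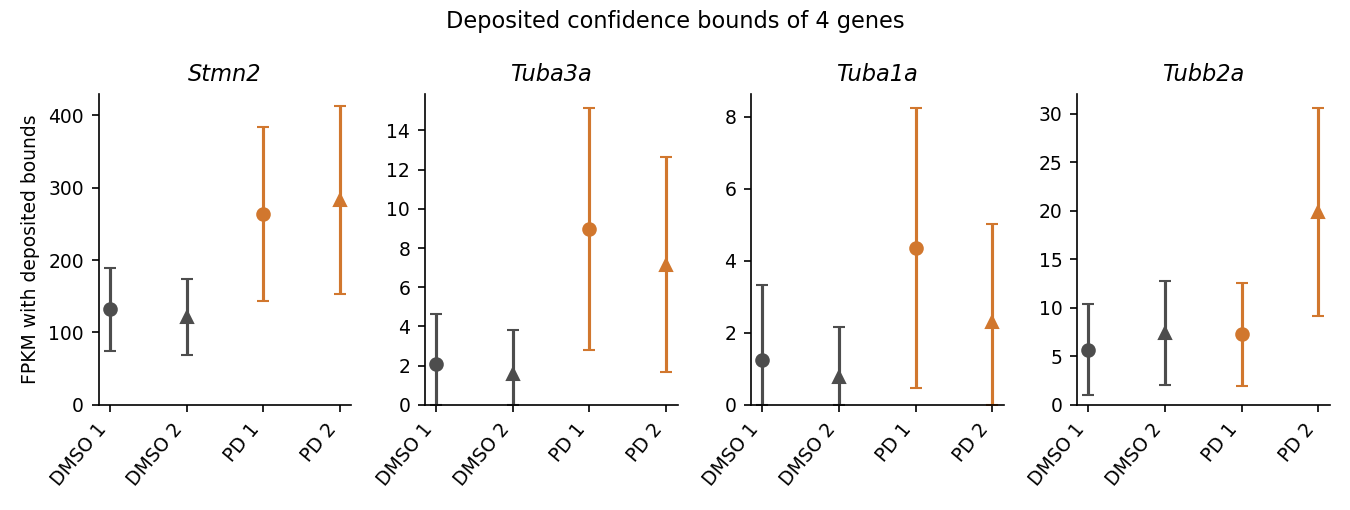
FPKM of Stmn2, Tuba3a, Tuba1a and Tubb2a in each library, each panel with its own linear axis from 0; bars are the confidence bounds the authors deposited. The PD points of Stmn2, Tuba3a and Tuba1a lie above the DMSO points with overlapping bars, and Tubb2a is high only in PD replicate 2, at 19.9 FPKM.

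The order of levels in DMSO ran Tubb5, Tubb2b, Stmn2, Tubb4b, Tuba1b, Stmn1, Tubb2a, Stmn3, Tuba3a, Tuba1a. Libraries of Tubb2b and Stmn2 overlapped, as did those of Stmn1 with Tubb2a and of Tubb2a with Stmn3; the other neighbours stood apart. In PD, Stmn2 was second and stood apart from Tubb2b, at 273 against 139 FPKM on average. From Tubb2a downward, at 13.6 FPKM and less, every pair of neighbours in PD overlapped, with Tuba3a now among them in the seventh place at 8.06 FPKM.

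Genes with a pattern most like that of Stmn2 over the 4 libraries were sought by the root mean square distance between log2(FPKM + 1) values centred on each gene's mean, among 5005 protein-coding genes whose mean reached 5 FPKM. The 5 nearest were Appl2, Lgals3, Mymx, Ripk3 and Cdk2ap2, at distances of 0.03 to 0.10. Appl2, an endosomal adaptor, had 3.94 and 3.45 FPKM in DMSO and 8.49 and 8.99 FPKM in PD. Lgals3, a galactoside-binding lectin, had 10.8 and 9.84 FPKM in DMSO and 24.9 and 23.7 FPKM in PD. Appl2, Ripk3 and Cdk2ap2 were below 5 FPKM in each DMSO library and reached that mean only through PD, so the filter favoured a higher PD level for them. With 4 libraries, this likeness describes mainly the difference between the groups.

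Markers of other cells were read beside Stmn2, Tuba1a and Tuba3a, since these genes are known from neurons and testis. Of 24 neural and neuronal markers, Dcx, Snap25 and Syt1 were among those listed at 0 in all libraries, and 8 reached a mean of 1 FPKM. Their levels summed to 203 and 126 FPKM for DMSO and to 226 and 153 FPKM for PD, which overlap, and most of this came from Uchl1 and Tubb3. Uchl1, a deubiquitinase abundant in neurons, had 108 and 77.7 FPKM in DMSO and 141 and 91.9 FPKM in PD. Of the 8, Nes and Chga had higher values in each PD library than in either DMSO library, and 0 had lower values in each, beside 17.5% and 18.3% of all tested genes. Nes averaged 1.06 and 1.56 FPKM, and Chga 3.99 and 5.96 FPKM. By the means, Pax6, Nefl, Ina and Gap43 were lower in PD, with log2 differences of -0.55, -0.58, -0.68 and -0.88, and the median of the 8 was -0.13. Of 15 germ cell and testis markers, Prm1, Prm2, Tnp1 and Acrv1 were listed at 0, and the sum was 15.9 and 14.3 FPKM in DMSO and 20.1 and 12.5 FPKM in PD. Of the 6 tested, Dazl, Stra8 and Piwil2 reached a mean of 1 FPKM only through PD, so their higher PD values are not counted as a result. The others were Ddx4, Sycp3 and Mael, whose groups overlapped, with log2 differences of -0.16, -0.81 and 0.002. Of 16 feeder and fibroblast markers, Lum, Postn, S100a4 and Twist2 were listed at 0, and the sum, mostly fibronectin (Fn1), was 92.4 and 107 FPKM in DMSO and 86.2 and 89.0 FPKM in PD. limma passed 0 genes of these 3 marker lists, and 0 had an unadjusted p under 0.05. As limma passed 0 of all 8861 tested protein-coding genes, the 0 passing is not particular to these lists. The part of such cells in the values of Stmn2, Tuba1a and Tuba3a was not tested further. In these bulk libraries more cells of a type cannot be told from more footprints per cell.

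Other genes of tubulin supply and microtubule assembly came from 5 lists with 77 tested genes. limma passed 0 of them in either direction, with Tuba8 and Map1b at an unadjusted p under 0.05. voom on recovered reads tested 46 of them and also passed 0, with 4 at an unadjusted p under 0.05: Tuba8, Map1b, Numa1 and Sirt2. For Sirt2 the recovered reads were 176 and 224 for DMSO and 187 and 44 for PD. Its deposited lower bounds were 0 in every library but PD replicate 1, so these reads may be far too many. Over all 9741 genes limma passed 0.0308% higher and 0.226% lower, of which 0 were protein-coding. Every PD value was above every DMSO value for 17 of the 77 and below for 9, or 22.1% and 11.7%, against 17.5% and 18.3% of all tested genes. Tuba8, among the 17, and Tube1, among the 9, had reached the filter through 1 group only. Their median log2 difference was 0.10, against -0.02 over all tested genes.

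Among 18 factors of tubulin folding, autoregulation and turnover, 5 had both PD libraries above and 1 had both below. Over all tested genes these shares were 17.5% and 18.3%, and the counts were not tested. The median was -0.07, and it turned to 0.02 with quantile normalization, 0.03 without DMSO replicate 2 and 0.05 without PD replicate 1. Pfdn5, a subunit of the prefoldin that hands new tubulin to the chaperonin, had 180 and 177 FPKM in DMSO and 268 and 675 FPKM in PD, so most of its difference of 1.25 (SE 0.51, limma adjusted p = 0.837) came from PD replicate 2. The cofactor Tbca, which holds beta-tubulin during folding, had means of 113 ± 9.40 and 160 ± 39.6 FPKM for DMSO and PD (SD, n = 2). Tbcb, which holds alpha-tubulin, had 92.0 ± 6.84 and 106 ± 3.33 FPKM (SD, n = 2). Pfdn1, another prefoldin subunit, had 75.7 and 59.8 FPKM, and the limma adjusted p of these 3 genes ran from 0.837 to 0.892.

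Among 19 genes of microtubule nucleation, 6 had both PD libraries above and 1 had both below, beside 17.5% and 18.3% of all tested genes. These counts were not tested, and the median was 0.17. Tubgcp2, a core subunit of the gamma-tubulin ring that seeds filaments, had 10.9 and 11.1 FPKM in DMSO and 19.1 and 16.5 FPKM in PD (log2 difference 0.65, SE 0.25, limma adjusted p = 0.837). Its partner Tubgcp3 had means of 4.36 ± 0.146 and 6.82 ± 0.475 FPKM (SD, n = 2). Haus1, of the augmin complex that branches filaments, had 29.2 and 44.1 FPKM on average. The deposited lower bound of Haus1 was 0 in each library, and its upper bounds ran from 107 to 170 FPKM. Mzt2, a small protein of the ring, had 22.7 and 13.5 FPKM, and limma gave all 3 an adjusted p of 0.837. Tubg1, gamma-tubulin itself, had 12.9 and 21.6 FPKM in DMSO and 17.0 and 19.6 FPKM in PD (limma adjusted p = 0.965). Tubd1 and Tube1, the delta- and epsilon-tubulins of centrioles, had log2 differences of -0.37 and -0.65 (limma adjusted p = 0.93 and 0.837), and of the pair Tube1 had each PD value below each DMSO value.

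Among 23 tested plus-end, binding and severing proteins, 4 had both PD libraries above and 5 had both below. The shares of all tested genes were 17.5% and 18.3%. The median was 0.09, and it became -0.10 without DMSO replicate 1, -0.01 without PD replicate 1 and -0.19 by voom. Map1b, a microtubule-binding protein of growing neurites, had 7.14 and 9.28 FPKM in DMSO and 4.68 and 3.78 FPKM in PD (log2 difference -0.81, SE 0.29, limma adjusted p = 0.837). Numa1, which anchors spindle poles, had means of 19.3 and 11.5 FPKM, and the severing enzyme Katna1 had 20.4 ± 1.29 and 13.3 ± 0.47 FPKM (SD, n = 2). Map4, a microtubule-binding protein of most cells, had means of 24.2 ± 3.71 and 34.6 ± 1.36 FPKM (SD, n = 2), and Kif2c, a kinesin that takes filament ends apart, had 33.5 and 50.8 FPKM. Fignl1, a relative of the severing enzymes, had 44.9 and 53.7 FPKM, and limma gave these genes adjusted p-values of 0.837 to 0.874. Among 9 tested tubulin modifying enzymes, 1 had both PD libraries above, the deacetylase Sirt2, and 0 had both below. These counts stand beside the same 17.5% and 18.3% of all tested genes. The median was 0.22. Sirt2 had 2.38 and 2.14 FPKM in DMSO and 5.46 and 2.96 FPKM in PD (limma adjusted p = 0.837).

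**Figure D4:**
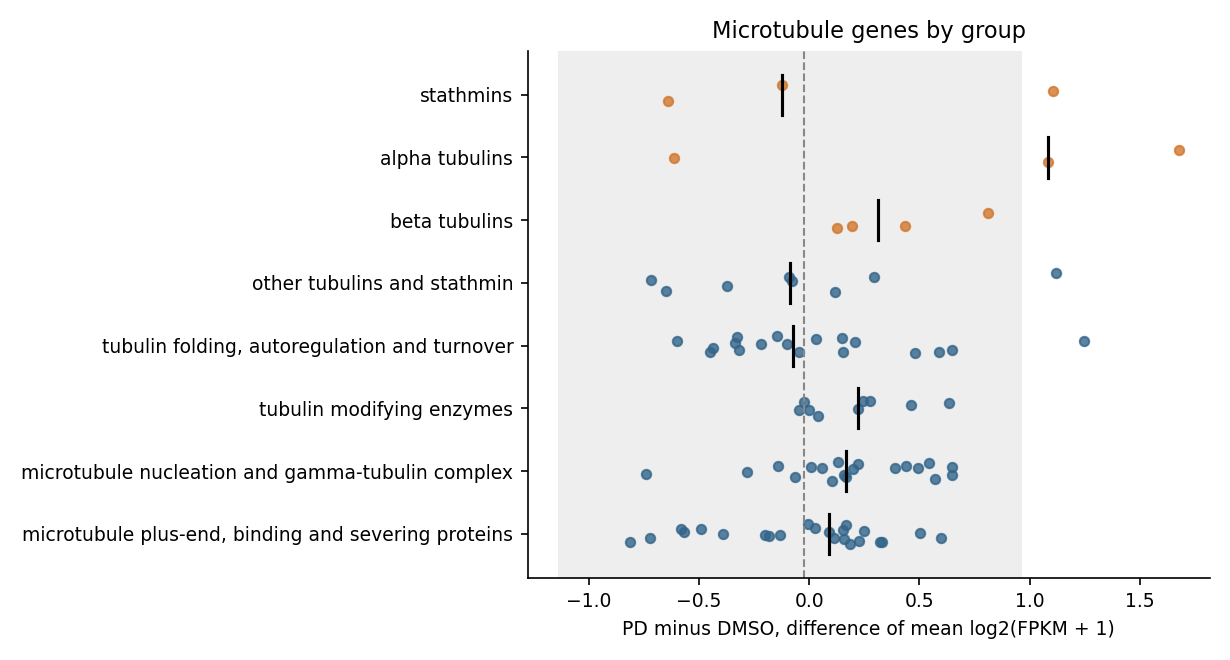
PD minus DMSO, as the difference of mean log2(FPKM + 1), for each tested gene of the 3 member families (orange) and 5 microtubule lists (blue); black ticks are medians, the dashed line is the median of all tested genes and the grey band runs from their 5th to their 95th percentile, -1.13 to 0.96. Stmn2, Tuba1a and Tuba3a lie right of the band, together with Tuba8 and Pfdn5, and most other genes lie inside it.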

How the data were processed

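Ribosome footprints of 4 libraries were analysed from a single deposited table, whose columns per the file headers follow the layout of Cufflinks: FPKM and their confidence bounds. Other tools in the submitters' processing notes are Trimmomatic, FastQC, STAR and Bowtie2, with the build mm10. Versions, and the treatment of reads that match several places, are not given in the sources used here. The deposited FPKM were used without further scaling. Loci are those of the table with 1 added to each start. 1 gene without an OK status was left out.

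The 9741 genes whose mean reached 1 FPKM were fitted on log2(FPKM + 1) by limma 3.58.1 (R 4.3.3; moderated variance with a trend on the mean, 2 residual degrees of freedom). Benjamini-Hochberg adjustment ran over all of them, at a threshold of 0.05. Members had no test. Whole reads were recovered with Python 3.11.15 from the FPKM steps, at a tolerance of 0.02 reads. This gave reads for 68.1% of 10161 genes that were nowhere at 0, and for 3.08% with wrong steps. On simulated data the reads equalled the truth for 93.2% of recovered genes. Those genes were made with a step shared by all libraries, and reads were recovered for 97.7% of them. The simulation was thus easier than the deposited values, and the true share here may be lower. The limma step was also tested on simulated data.

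The members and gene lists were chosen with earlier results of these data known. Named are all members, all other tubulins with a mean of at least 1 FPKM, the 5 genes most like Stmn2 and, per list, up to 3 genes per direction with the largest differences among those with a mean of at least 5 FPKM and no overlap between groups; Uchl1, Nes, Chga, Pax6, Nefl, Ina, Gap43, Dppa5a, Dppa2, Ddx4, Sycp3, Mael, Dazl, Stra8, Piwil2, Sirt2, Tuba3b, Stmn4 and Tubb2a-ps2 were named after their values were seen. Of the embryonic stem cell markers that the rule takes only Nanog is named, and 2 listed genes are not reported here. Alternatives were other pseudocounts, filters and scalings, no variance trend, a replicate block, each library left out, voom on recovered reads, deposited bounds and wider tubulin sums.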

Additional observations from a re-analysis of the deposited data

How the results depend on the processing

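Of all tested genes, 3 passed higher and 22 lower in PD, and other pseudocounts, filters, scalings and no variance trend gave 2 to 3 higher and 19 to 25 lower. Leaving out 1 library gave 0 to 27 higher and 0 to 20 lower, with 0 in either direction without DMSO replicate 1 and without DMSO replicate 2 (limma; 344 and 416 genes had an unadjusted p under 0.05). Without PD replicate 1 the counts were 13 (higher) and 10 (lower); leaving out PD replicate 2 made them 27 and 20. voom on recovered reads, which tests 6382 genes, gave 0 higher and 0 lower, and 386 genes had an unadjusted p under 0.05. With replicate number as a block, 2 passed higher and 17 lower; nothing in the labels says the numbers pair the libraries, and the deviations of same-numbered libraries correlated at r = 0.0992 over 9741 genes. Of the microtubule and marker lists, 0 genes passed in the settings run, each with limma or voom.

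Counted by library values, 3 members had groups that did not overlap, and by the deposited bounds 0 did. By library values, 17.5% of all tested genes had both PD libraries above and 18.3% had both below. The members were selected on this contrast. The log2 difference of Stmn2 stayed between 1.04 and 1.17, that of Tuba3a between 0.93 (pseudocount 5) and 2.18, and that of Tuba1a between 0.46 (pseudocount 5) and 1.88. Those of Tubb2b, Tubb4b and Tubb2a stayed above 0, down to 0.02, 0.04 and 0.15. The summed alpha-tubulin difference, 0.43, was 0.26 to 0.61 with 1 library left out and -0.024 when the other listed alpha genes were summed with the members. That of beta-tubulin, 0.21, was 0.08 to 0.33 with 1 library left out. Depth limits the low members most: PD replicate 2 held 1 to 55 recovered reads for the 7 members with reads.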
